A study of Homo sapiens with 9 samples.

Results

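Wnt target and intestinal stem cell genes were examined in HT29, an established human line from a colon cancer, on Affymetrix HG-U133 Plus 2.0 arrays. The list held 37 genes: feedback inhibitors of the Wnt pathway, its signalling core, genes that mark intestinal stem cells, other targets of β-catenin, and BMP4 with the ID genes of the BMP response. Each gene was represented by the probe set with 1 gene symbol and the highest mean log2 intensity over the 9 arrays. By that rule 34 of the 37 were measured, among 19775 genes in all. TCF7, EPHB2 and BMI1 had no probe set that carried their symbol alone, and were not analysed here.

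The arrays formed 3 groups of 3. ICC cells were incubated with instant caffeinated coffee at 7 µg/mL for 24 h, CA cells were incubated with caffeic acid, a phenolic acid of coffee, at 1.68 µg/mL for 24 h, and Control cells received no treatment. The labels number the replicates 1 to 3 in each group, but state neither what a number marks nor whether the replicates were separate cultures, so the p-values reflect array-to-array spread alone, and that spread may be technical. All values come from 1 cell line.

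Wnt proteins bind Frizzled receptors and LRP co-receptors, which stops a complex built on AXIN and APC from destroying β-catenin (CTNNB1). β-catenin then enters the nucleus and activates targets with the TCF/LEF factors, and many of these targets are inhibitors that feed back on the pathway. At the base of the intestinal crypt this signal keeps LGR5-positive stem cells dividing, whereas BMP signals prevail towards the crypt's mouth. HT29 cells carry truncated APC, so that β-catenin signalling does not depend on a Wnt ligand.

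The TCF/LEF factors recognise a short sequence that starts with CTTTG. The letters CTTTGAT and CTTTGAA were searched on both strands of RefSeq promoter windows of 300 bases, from 250 before to 50 after the transcription start (GRCh38.p14). A match stood in 2281 of 27305 genes with a window (8.35%), and in 5 of the 24 measured members that had one (20.8%): MMP7, DKK1, SP5, PROM1 and ID3. A gene counted if any of its windows held a match, so genes with more windows had more room for one. By window the share over all genes was 6.86% of 35116, which is no counterpart to the members' 20.8% by gene. Of the several PROM1 windows 1 held a match. AXIN2, NKD1, NOTUM, ASCL2, PROX1 and LGR5 were among the members without a window. A match describes the letters only and does not show that a factor was bound. The windows of MMP7, DKK1 and SP5 are shown because they are classic pathway targets that hold the letters, and because MMP7 and DKK1 stood among the members that differed most between replicate numbers. Capitals mark the matches, on either strand, each sequence runs 5′ to 3′ on the gene's own strand, and distances count from a match's first base to the start site.
MMP7 (matrilysin, minus strand, chr11:102530698-102530997), with matches 194 and 109 bases before the start: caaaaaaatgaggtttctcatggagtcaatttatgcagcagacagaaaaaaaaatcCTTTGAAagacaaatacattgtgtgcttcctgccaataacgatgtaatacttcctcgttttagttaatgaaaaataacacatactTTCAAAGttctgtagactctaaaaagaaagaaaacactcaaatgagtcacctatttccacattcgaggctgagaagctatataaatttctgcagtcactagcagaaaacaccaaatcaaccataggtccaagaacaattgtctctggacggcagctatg
DKK1 (plus strand, chr10:52314031-52314330), with 1 match 95 bases before the start: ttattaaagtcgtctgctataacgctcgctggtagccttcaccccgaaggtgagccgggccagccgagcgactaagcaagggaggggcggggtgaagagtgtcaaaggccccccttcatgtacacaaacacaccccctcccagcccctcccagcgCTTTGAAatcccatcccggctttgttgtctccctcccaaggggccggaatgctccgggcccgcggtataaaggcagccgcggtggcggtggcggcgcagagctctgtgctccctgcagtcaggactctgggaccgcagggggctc
SP5 (plus strand, chr2:170715087-170715386), with 3 matches 148, 109 and 84 bases before the start: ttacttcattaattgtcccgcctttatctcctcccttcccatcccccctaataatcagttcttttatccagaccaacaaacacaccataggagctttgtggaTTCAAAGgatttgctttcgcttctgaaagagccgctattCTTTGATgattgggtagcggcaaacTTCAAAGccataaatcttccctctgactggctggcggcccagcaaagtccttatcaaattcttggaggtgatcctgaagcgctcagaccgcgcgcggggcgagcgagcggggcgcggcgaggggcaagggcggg

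Array medians ran between 43.8 and 46.6 in intensity, and with 9 arrays precision is limited throughout. All 10 listed markers of colon epithelium were measured, and 0 of them fell below the lower quartile of all genes over the 9 arrays. Of the 34 members, 17 lay above the upper quartile of all genes by their mean over the arrays and 3 below the lower quartile, namely OLFM4, APCDD1 and ID3, of which OLFM4 was dimmer than all but 1.9% of genes and ID3 lay just under the quartile. Over the 9 arrays a member's log2 intensity spanned between 0.27 and 2.00, with a median span of 0.50. DKK1 had the widest span of the members, and the plot of all members by array shows which of them varied.

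**Figure D1:**
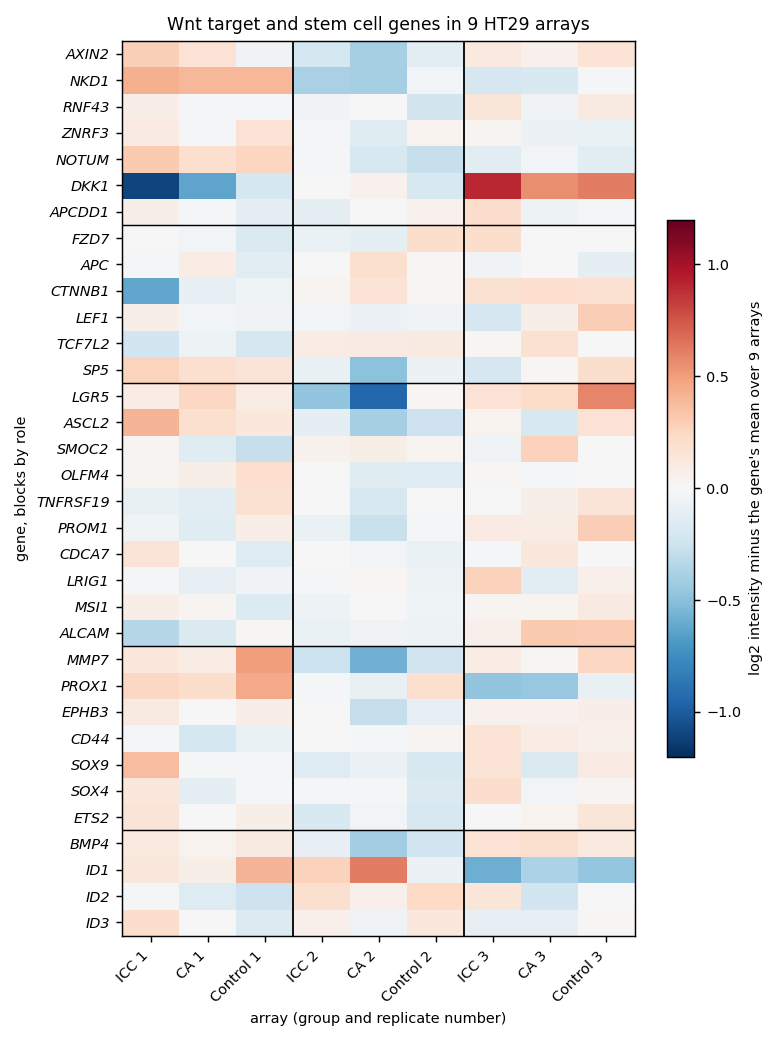
Each row is a member, in blocks by role, and each column 1 of the 9 arrays by group and replicate number. Colour gives the array's log2 intensity minus the gene's mean over the 9 arrays. Columns of the same number resemble each other across groups for NKD1, DKK1, PROX1 and LGR5, and the 3 groups overlap for all 34 members.

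Treatment was examined first, because coffee and 1 of its phenolic acids were set against untreated cells. No Wnt or stem cell gene passed the test in any of the 3 comparisons (limma, Benjamini-Hochberg adjusted p under 0.05 over 19775 genes), the threshold at which a gene is said to be called. In ICC against Control 0 of 34 members passed, where 0 of 19775 genes passed, a background of 0%. In CA against Control 0 of 34 members passed, against a background of 0%, and in ICC against CA likewise 0 of 34 against 0%. With the replicate number as a block, which compares arrays of the same number, 0 genes passed in ICC against Control, 3 genes (0.0152%) in CA against Control and 1 gene (0.00506%) in ICC against CA, and none of them was a member. At an unadjusted p under 0.05, the counts of members were 0 of 34 in ICC against Control (7.73% of all genes), 2 of 34 in CA against Control (4.47% of all genes) and 0 of 34 in ICC against CA (2.69% of all genes). With the block they were 3 of 34 (12.4% of all genes), 6 of 34 (8.54%) and 2 of 34 (5.96%).

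The arrays of the groups overlapped for every measured member. Groups that did not overlap were found for 0 of 34 members in ICC against Control, where 12.0% of all genes had them, for 0 of 34 in CA against Control (7.86%) and for 0 of 34 in ICC against CA (5.87%). The differences of the members lay between -0.31 and +0.16 log2 in ICC minus Control and between -0.40 and +0.17 in CA minus Control. In ICC minus CA they lay between -0.23 and +0.25. The standard error of a member's difference was between 0.074 and 0.45 without the block and between 0.065 and 0.19 with it, so the data do not show that the members were unaltered by treatment. In bulk RNA, fewer cells of a type and less RNA per cell cannot be told apart.

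As a list, the members stood near 0. In ICC minus Control 19 members lay above 0 and 15 below, where 39.8% of all genes lay below. The members' median was +0.04 log2, beside +0.03 over all genes. Without the Control replicate 2 array that median was -0.01. In CA minus Control 11 lay above and 23 below 0, where 48.6% of all genes lay below. The members' median was -0.05 beside 0.00 over all genes, and it ran between -0.11 and -0.01 when 1 array was left out. It was lowest without Control replicate 2 and nearest 0 without Control replicate 3 or CA replicate 2. In ICC minus CA 24 lay above and 10 below 0, where 39.4% of all genes lay below. The members' median was +0.08 beside +0.02 over all genes, and -0.01 without CA replicate 2. Both treatments were set against the same Control arrays, so their differences are not independent.

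**Figure D2:**
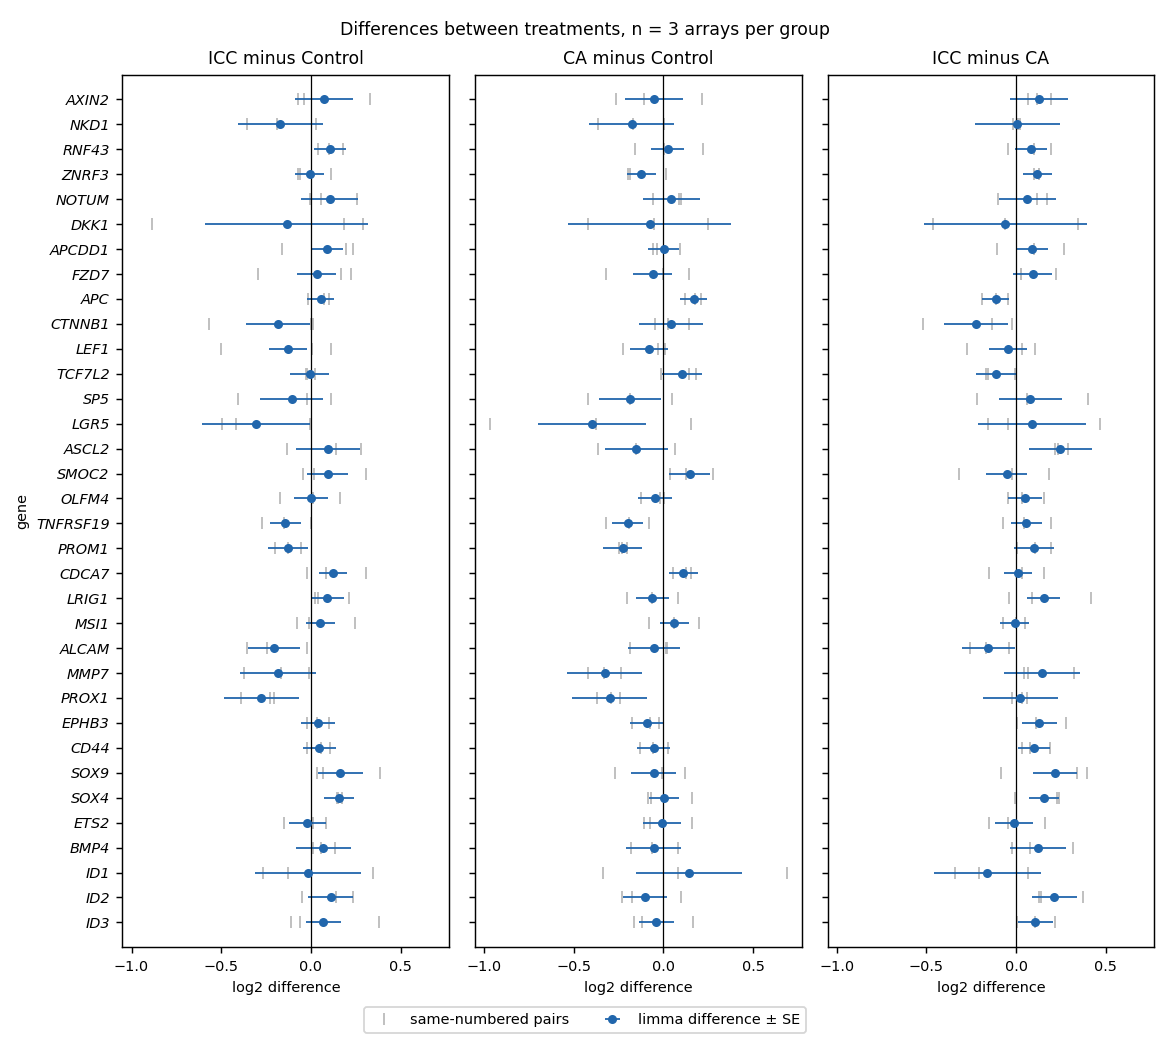
The 3 panels give ICC minus Control, CA minus Control and ICC minus CA for the 34 members, as the mean log2 difference with its SE and as the differences of the 3 same-numbered pairs. PROX1, MMP7 and PROM1 lie below 0 in all 3 pairs of both comparisons with Control, and 0 of 34 members pass the adjusted test in any panel.

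Among the feedback inhibitors, AXIN2, the scaffold of the destruction complex whose transcription β-catenin drives, is the usual readout of the pathway. AXIN2 had a log2 intensity of 10.23, 9.73 and 10.06 in ICC replicates 1, 2 and 3, of 10.11, 9.54 and 10.00 in CA and of 9.90, 9.81 and 10.10 in Control. The 3 groups overlapped, with replicate 2 the lowest in each. Its difference was +0.07 ± 0.16 log2 in ICC minus Control and -0.05 ± 0.16 in CA minus Control (SE, n = 3 arrays in each group), and neither passed (limma, adjusted p = 0.936 and 1.00).
RNF43, a ubiquitin ligase that removes Frizzled receptors from the membrane, had 10.49, 10.36 and 10.56 in ICC, 10.39, 10.41 and 10.36 in CA and 10.39, 10.19 and 10.52 in Control. ICC stood above Control in all 3 pairs, but the groups overlapped and the difference of +0.11 ± 0.091 log2 did not pass (limma, adjusted p = 0.786). ZNRF3, a ligase with the same role, and APCDD1, a membrane inhibitor of Wnt signals, showed no call either. NKD1 and NOTUM passed no treatment test. DKK1 stood at -0.14 ± 0.45 log2 in ICC minus Control (adjusted p = 0.958), with pairs of -0.89, +0.19 and +0.29, the widest error of the members. Their arrays are given by replicate number.

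In the signalling core, APC, which holds β-catenin for destruction, had 8.36, 8.38 and 8.34 in ICC, 8.47, 8.57 and 8.38 in CA and 8.26, 8.40 and 8.26 in Control. CA stood above Control in each pair, by 0.21, 0.18 and 0.12 log2, while its lowest array lay below the highest Control array. The difference was +0.17 ± 0.074 log2, with an unadjusted p of 0.0453 and an adjusted p of 0.996 (limma). The direction depended on the probe set: 2 of the 5 APC probe sets lay above 0 and 3 below, from -0.23 to +0.17, and the mean of the 5 gave -0.02.
SP5, a zinc finger protein induced directly by β-catenin, had 8.39, 8.03 and 7.92 in ICC, 8.33, 7.63 and 8.14 in CA and 8.28, 8.06 and 8.33 in Control. The groups overlapped, and its differences were -0.11 ± 0.17 log2 in ICC minus Control and -0.19 ± 0.17 in CA minus Control, neither of which passed (limma, adjusted p = 0.904 and 1.00). The receptor FZD7 and the transcription factor LEF1 also passed no treatment test.

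No stem cell gene was called by treatment. LGR5, the R-spondin receptor that defines crypt base stem cells, had 7.02, 6.46 and 7.11 in ICC, 7.18, 5.99 and 7.15 in CA and 7.03, 6.96 and 7.52 in Control. Every replicate 2 array of LGR5 was the lowest of its group, and the CA array of that number was the lowest of all. ICC minus Control was -0.31 ± 0.30 log2 (limma, adjusted p = 0.815). In CA minus Control the difference was -0.40 ± 0.30 (adjusted p = 1.00, or 0.546 with the block), with pairs of +0.15, -0.97 and -0.37. Without CA replicate 2 the CA difference of LGR5 was -0.004, and its second probe set stood at +0.02 in that comparison.
ASCL2, the transcription factor that maintains the stem cell state in mouse crypts, had 8.67, 8.15 and 8.30 in ICC, 8.45, 7.86 and 8.07 in CA and 8.39, 8.01 and 8.43 in Control. ICC stood above CA in all 3 pairs, by 0.22, 0.29 and 0.23 log2, although the groups overlapped. The mean of +0.25 had an SE of 0.18 without the block and of 0.088 with it, and the adjusted p was 1.00 and 0.810 (limma).
PROM1, the surface protein CD133, had 11.78, 11.75 and 11.92 in ICC, 11.68, 11.56 and 11.92 in CA and 11.91, 11.81 and 12.12 in Control. The CA array of each number lay below its Control array by 0.23, 0.25 and 0.20 log2, and the ICC arrays lay between them or level with CA. The CA difference of -0.23 ± 0.11 did not pass (limma, adjusted p = 0.996, or 0.428 with the block).

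TNFRSF19, a receptor of the TNF family found on LGR5-positive cells of the mouse and also known as TROY, had 5.17, 5.27 and 5.27 in ICC, 5.13, 5.07 and 5.34 in CA and 5.45, 5.27 and 5.42 in Control. The highest CA array lay between the Control arrays. CA minus Control was -0.20 ± 0.086 log2, with an unadjusted p of 0.0434 and an adjusted p of 0.996 (limma), and all 3 probe sets of TNFRSF19 lay below 0 in that comparison.
ALCAM, the adhesion molecule CD166, had 8.31, 8.57 and 8.71 in ICC, 8.48, 8.61 and 8.97 in CA and 8.67, 8.59 and 8.95 in Control. ICC lay below Control in all 3 pairs, by as little as 0.02 in number 2. The mean of -0.21 ± 0.15 did not pass (limma, adjusted p = 0.747, or 0.357 with the block). OLFM4, a secreted glycoprotein of human crypt stem cells, was dim, with 3.33, 3.31 and 3.31 in ICC, 3.37, 3.16 and 3.28 in CA and 3.50, 3.15 and 3.30 in Control, and its groups overlapped. SMOC2, a matrix protein of mouse crypt base cells, CDCA7, LRIG1, a brake on ERBB receptors, and MSI1, an RNA-binding protein, passed no treatment test.

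Of the other targets, PROX1 lay below Control in every same-numbered pair of both treatments. PROX1 is a homeobox factor that β-catenin switches on in colon tumours. Its log2 intensity was 8.93, 8.66 and 8.21 in ICC, 8.90, 8.60 and 8.23 in CA and 9.14, 8.89 and 8.60 in Control. Arrays of one number differed less than arrays of one group, so the groups overlapped while each treated array lay below the Control array of its number. ICC lay below Control by 0.21, 0.23 and 0.39 log2, a mean of -0.28 (limma, adjusted p = 0.762, or 0.312 with the block, SE 0.21 and 0.067). CA lay below Control by 0.24, 0.29 and 0.37, a mean of -0.30 (adjusted p = 0.996, or 0.358 with the block). PROX1 was thus not called under either fit, and its unadjusted p with the block was 0.00202 for ICC and 0.00112 for CA. Of its 4 probe sets 4 lay below 0 in CA minus Control and 3 in ICC minus Control.

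MMP7, a matrix metalloproteinase of tumour epithelium and of mouse Paneth cells, had 12.11, 11.73 and 12.07 in ICC, 12.07, 11.41 and 12.00 in CA and 12.49, 11.74 and 12.23 in Control. Replicate 2 was the lowest array in each group, and the treated arrays lay below the Control array of their number in all 6 pairs. CA minus Control was -0.33 ± 0.21 log2, with pairs of -0.42, -0.33 and -0.23 (limma, adjusted p = 0.996, or 0.399 with the block). ICC minus Control was -0.18 ± 0.21 (adjusted p = 0.851, or 0.399 with the block), and the ICC pair of number 2 differed by only -0.01.
CD44, a hyaluronan receptor of crypt base and tumour cells, had 11.50, 11.53 and 11.69 in ICC, 11.31, 11.50 and 11.61 in CA and 11.44, 11.55 and 11.58 in Control, with overlapping groups. SOX9, a transcription factor of progenitors and Paneth cells, had 10.95, 10.43 and 10.75 in ICC, 10.56, 10.52 and 10.41 in CA and 10.56, 10.40 and 10.68 in Control. The ICC values of SOX9 were the most scattered of its groups, and its ICC minus Control of +0.16 ± 0.13 log2 did not pass (limma, adjusted p = 0.762). SOX4 stood at +0.16 ± 0.084 in ICC minus Control, above 0 in all 3 pairs (adjusted p = 0.670). The guidance receptor EPHB3, which sorts cells along the mouse crypt, and ETS2 passed no treatment test.

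The BMP arm held BMP4, a ligand of the pathway, and ID1, ID2 and ID3, inhibitors of helix-loop-helix factors that BMP receptors induce. ID2 had 9.31, 9.52 and 9.47 in ICC, 9.17, 9.39 and 9.09 in CA and 9.07, 9.57 and 9.32 in Control. ICC lay above CA in each pair, by 0.14, 0.13 and 0.37 log2, with overlapping groups, and the mean of +0.21 ± 0.12 did not pass (limma, adjusted p = 1.00, or 0.810 with the block). BMP4 and ID1 differed between replicate numbers and are given with them.

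Members whose 3 same-numbered pairs all pointed one way were counted beside all genes. ICC lay above Control in all 3 pairs for 5 members (RNF43, LRIG1, SOX9, SOX4 and BMP4), where 21.1% of all genes did so, and below it for 5 (LGR5, PROM1, ALCAM, MMP7 and PROX1), where 12.2% did. CA lay above Control in 3 of 3 pairs for 3 members (APC, SMOC2 and CDCA7, beside 13.8% of all genes) and below it for 5 (TNFRSF19, PROM1, MMP7, PROX1 and EPHB3, beside 13.9%). ICC lay above CA for 10 members, among them AXIN2, ASCL2, PROM1 and MMP7 (15.5% of all genes), and below it for 4, namely APC, CTNNB1, TCF7L2 and ALCAM (8.77%). These pair counts are descriptions without a test of their own, and they rest on each gene's brightest probe set. Of 7 TCF7L2 probe sets, 5 lay above 0 in ICC minus CA and 2 below, from -0.11 to +0.26. ALCAM and CTNNB1 each had 1 above and 2 below, and all 5 of APC lay below.

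Replicate number was examined next, because same-numbered arrays of the 3 groups resembled each other. Replicate 1 arrays differed from those of replicates 2 and 3 in 8 of 34 members, or 23.5%, beside a background of 5.07% of all genes (limma with group and number as terms, Benjamini-Hochberg adjusted p under 0.05). NKD1, PROX1, NOTUM, MMP7 and ASCL2 were higher in replicate 1, and DKK1, CTNNB1 and TCF7L2 were lower. Of all genes 4.03% were higher and 1.05% lower. That background includes many dim genes, whereas few members were dim. Without dim genes, whose group means all lay under the median of all genes, 9 of 27 members were called, beside 1294 of 10043 genes. Replicate 1 arrays did not overlap the others in 7 members, or 20.6%, beside 9.20% of all genes. The members' median was +0.01 log2, beside +0.03 over all genes, with 19 members above 0 and 15 below, so the differences ran both ways. That median was -0.003 after another quantile normalization and 0.063 with the mean of each gene's probe sets. With 1 array left out it lay between 0.0016 and 0.068, highest without Control replicate 1. Once probe sets with the suffix _x_at or _s_at were dropped, it was 0.061 over the 24 members left. At an unadjusted p under 0.05 the count was 16 of 34, or 47.1%, beside 19.7% of all genes. The count of called members was 4 without CA replicate 1 or ICC replicate 1, 5 without CA replicate 3, Control replicate 2, Control replicate 3, ICC replicate 2 or ICC replicate 3, and at most 7 when any 1 array was left out.

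The feedback inhibitors NKD1, NOTUM and DKK1 were called in that contrast, in opposite directions. NKD1, which binds Dishevelled and dampens the signal, had 7.50, 7.47 and 7.47 in replicate 1 of ICC, CA and Control, 6.68, 6.67 and 7.04 in replicate 2, and 6.87, 6.88 and 7.05 in replicate 3. All replicate 1 arrays lay above all others. The difference was +0.61 ± 0.072 log2, or 1.53-fold (limma, adjusted p = 0.00125), and it held in each group, at +0.72 in ICC, +0.69 in CA and +0.42 in Control. All 3 probe sets of NKD1 lay above 0 and 2 of them passed.
NOTUM, a secreted enzyme that inactivates Wnt proteins by removing their lipid, had 7.12, 7.00 and 7.06 in replicate 1 of ICC, CA and Control, 6.78, 6.61 and 6.53 in replicate 2, and 6.67, 6.77 and 6.67 in replicate 3. Replicate 1 did not overlap the others, and the difference was +0.39 ± 0.066 log2, or 1.31-fold (limma, adjusted p = 0.00900). Without Control replicate 1 or ICC replicate 1 NOTUM was no longer called (adjusted p = 0.060 and 0.062, over the 9 arrays left out in turn 0.0133 to 0.0617).

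DKK1, a secreted inhibitor that binds the LRP co-receptors, ran the other way. It had 8.26, 8.72 and 9.15 in replicate 1 of ICC, CA and Control, 9.35, 9.41 and 9.17 in replicate 2, and 10.26, 9.92 and 9.97 in replicate 3. Replicate 3 arrays were the highest and replicate 1 arrays the lowest in each group, although the Control arrays of numbers 1 and 2 were almost level. Replicate 1 minus the others was -0.97 ± 0.16 log2, or 1.96-fold lower (limma, adjusted p = 0.00781), at -1.55 in ICC, -0.94 in CA and -0.42 in Control. NKD1, PROX1 and DKK1 stayed called whichever of the 9 arrays was left out, with DKK1 between -1.25 and -0.68.

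**Figure D3:**
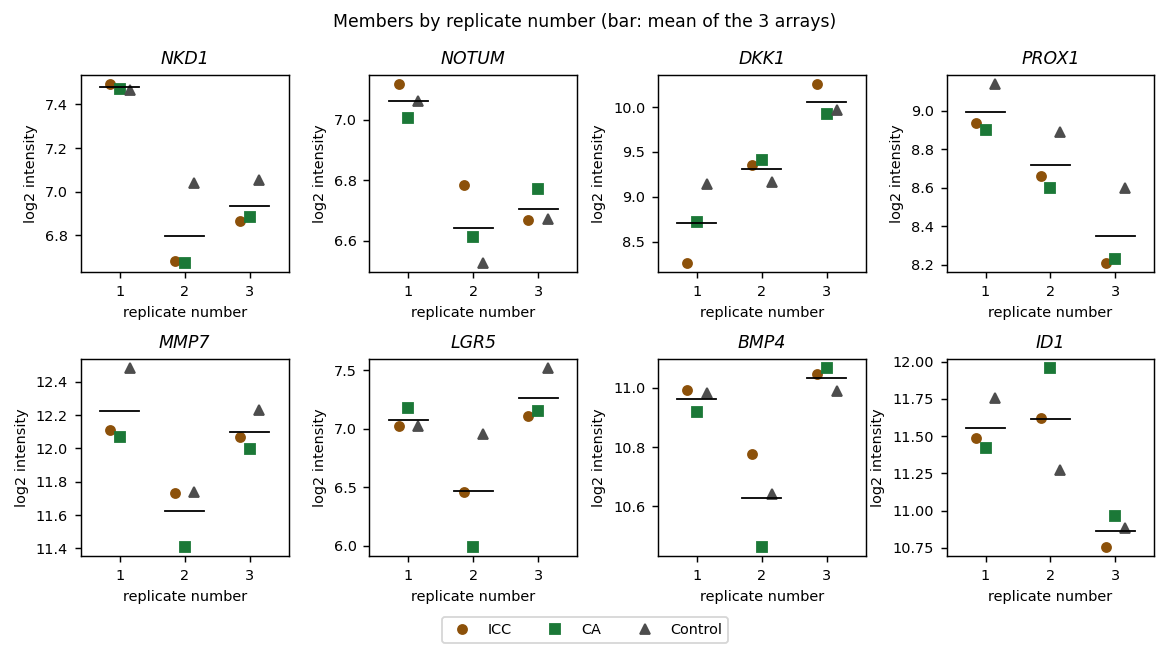
Each panel plots the log2 intensity of 1 member by replicate number, with a point for each of the 9 arrays, coloured by group, and a bar at the mean of the 3 arrays of a number. NKD1 and NOTUM have replicate 1 above the others in all groups, DKK1 has it lowest, and LGR5 and MMP7 have their lowest arrays in replicate 2.

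CTNNB1, β-catenin itself, had 9.66, 10.18 and 10.23 in replicate 1 of ICC, CA and Control, 10.31, 10.45 and 10.30 in replicate 2, and 10.46, 10.49 and 10.46 in replicate 3. Replicate 1 lay below the rest in each group, and the ICC array stood well below the other arrays of that number. The difference was -0.39 ± 0.094 log2 (limma, adjusted p = 0.0443), and without ICC replicate 1 it was -0.22 and no longer called. It was called in 1 of the 9 settings that leave out an array, without Control replicate 1. The probe sets of CTNNB1 disagreed, with 2 below 0 and 1 above, between -0.41 and +0.21.
TCF7L2, the main TCF factor of the intestine, falls outside the rule for values by array and was chosen after its values were seen. It had 11.32, 11.49 and 11.35 in replicate 1 of ICC, CA and Control, 11.64, 11.65 and 11.67 in replicate 2, and 11.58, 11.73 and 11.55 in replicate 3. Replicate 1 lay below all other arrays, by a mean of -0.25 ± 0.059 log2 (limma, adjusted p = 0.0393). TCF7L2 was called in 1 of 9 settings that leave out an array, without CA replicate 2. Of its 7 probe sets 6 lay below 0 and 1 above, between -0.27 and +0.02, and 1 of the 7 passed.

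PROX1 and MMP7 were called in both contrasts of replicate number. The PROX1 values of replicate 1 were 8.93, 8.90 and 9.14 in ICC, CA and Control, those of replicate 2 were 8.66, 8.60 and 8.89, and those of replicate 3 were 8.21, 8.23 and 8.60. Within each group number 1 was the highest and number 3 the lowest. Replicate 1 minus the others was +0.46 ± 0.058 log2, or 1.37-fold (limma, adjusted p = 0.00193), and replicate 2 minus 3 was +0.37 ± 0.067, or 1.29-fold (adjusted p = 0.0315). The second of these was called only without Control replicate 1 or ICC replicate 1 among the 9 settings that leave out an array. All 4 probe sets of PROX1 lay above 0 in both contrasts.
MMP7 in replicate 1 had 12.11, 12.07 and 12.49 in ICC, CA and Control, in replicate 2 it had 11.73, 11.41 and 11.74, and in replicate 3 it had 12.07, 12.00 and 12.23. Replicate 2 lay below both other numbers in every group, and its arrays did not overlap theirs. Replicates 1 and 3 overlapped, with means of 12.22 and 12.10 beside 11.63 in replicate 2, so the low replicate 2 entered both contrasts of MMP7. Replicate 1 minus the others was +0.36 ± 0.071 log2, or 1.28-fold (limma, adjusted p = 0.0175), a call lost without CA replicate 1, Control replicate 1 or Control replicate 3. Replicate 2 minus 3 was -0.48 ± 0.081, or 1.39-fold lower (adjusted p = 0.0280), a call lost without CA replicate 2, CA replicate 3, Control replicate 2, Control replicate 3 or ICC replicate 3.

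ASCL2 was the 1 stem cell gene called in replicate 1, where it had 8.67, 8.45 and 8.39 in ICC, CA and Control, against 8.15, 7.86 and 8.01 in replicate 2 and 8.30, 8.07 and 8.43 in replicate 3. The Control array of number 3 lay level with that of number 1. The difference was +0.37 ± 0.076 log2, or 1.29-fold (limma, adjusted p = 0.0236), and it was called in 3 of the 9 settings that leave out an array, lost without ICC replicate 1, 2 or 3, CA replicate 1 or 3, or Control replicate 2. AXIN2 stood at +0.21 in the same contrast and did not pass (adjusted p = 0.192), while its 4 probe sets all lay above 0 and 1 of them passed at +0.35.

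Replicate 2 arrays differed from replicate 3 arrays in 5 of 34 members, or 14.7%, beside a background of 1.73% of all genes. At an unadjusted p under 0.05 the count was 13 of 34, or 38.2%, beside 14.4% of all genes. MMP7, BMP4 and LGR5 were lower in replicate 2, and PROX1 and ID1 were higher. Of all genes 0.936% were higher and 0.799% lower. Without dim genes 7 of 27 members were called, beside 692 of 10043 genes. The 3 arrays of each number did not overlap for 13 members, likewise 38.2%, of which 12 were lower in replicate 2 and 1, ID1, was higher, where 18.4% of all genes did not overlap. Of the 34 members 28 lay below 0 and 6 above, with a median of -0.11 log2, beside -0.003 over all genes, of which 51.2% lay below 0. By the brightest probe set, all 7 feedback inhibitors and all 10 measured stem cell genes lay below 0, though of these LGR5 alone passed. ZNRF3 stood at only -0.005. Other probe sets differed: 3 of 4 of LRIG1 lay above 0, as did 1 each of APCDD1, SMOC2, TNFRSF19 and ALCAM. All probe sets of AXIN2, NKD1, LGR5, ASCL2 and CDCA7 lay below 0. The count of called members was 0 without CA replicate 2, CA replicate 3, Control replicate 3 or ICC replicate 3, 1 without Control replicate 2 or ICC replicate 2, 3 without CA replicate 1 or ICC replicate 1, and 7 without Control replicate 1.

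LGR5 had 6.46, 5.99 and 6.96 in replicate 2 of ICC, CA and Control, against 7.11, 7.15 and 7.52 in replicate 3. The arrays of both numbers did not overlap. The difference was -0.79 ± 0.16 log2, or 1.73-fold lower (limma, adjusted p = 0.0411), at -0.65 in ICC, -1.16 in CA and -0.57 in Control. The call held without CA replicate 1 or Control replicate 1 and was lost without any of the other 7 arrays. The second probe set of LGR5 was also lower in replicate 2, by 0.43 log2, and passed.
BMP4 had 10.78, 10.46 and 10.64 in replicate 2 of ICC, CA and Control, against 11.05, 11.07 and 10.99 in replicate 3, with no overlap. Its difference was -0.41 ± 0.078 log2, or 1.33-fold lower (limma, adjusted p = 0.0367), and the call held in 1 of 9 settings that leave out an array, without Control replicate 1. Replicate 1, at 10.99, 10.92 and 10.98, stood near replicate 3.
ID1 ran the other way from BMP4, with 11.62, 11.96 and 11.27 in replicate 2 of ICC, CA and Control, against 10.76, 10.96 and 10.88 in replicate 3. Again the arrays did not overlap, and replicate 1, at 11.49, 11.42 and 11.76, stood near replicate 2. The difference was +0.75 ± 0.15 log2, or 1.68-fold (limma, adjusted p = 0.0396), called without CA replicate 1, Control replicate 1 or Control replicate 2 and lost without any of the other 6 arrays. ID2 stood at +0.20 and ID3 at +0.11 in this contrast, and neither passed (adjusted p = 0.312 and 0.706).

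**Figure D4:**
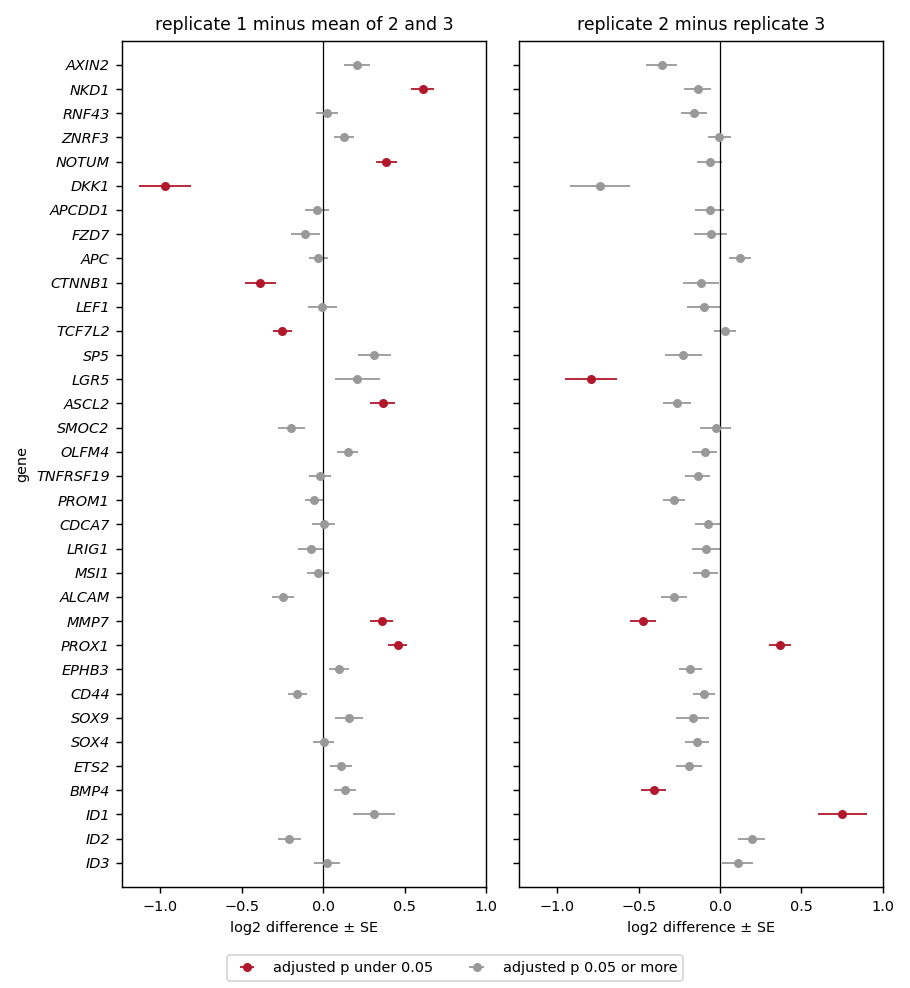
The log2 difference of each of the 34 members is plotted with its SE, for replicate 1 minus replicates 2 and 3 and for replicate 2 minus replicate 3, and called members are marked. In the first panel 8 members are called on both sides of 0, and in the second 28 of 34 members lie below 0 and 5 are called.

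Further genes of the pathway were listed to set the members in context: 87 other Wnt genes, of which 81 were measured, and 19 other BMP genes, of which 17 were. In the treatment comparisons 0 of 81 and 0 of 17 passed, with or without the block. At an unadjusted p under 0.05, 4 of 81 Wnt genes stood out in ICC against Control, beside 7.73% of all genes, with 3 higher and 1 lower. The kinases of the destruction complex ran apart, GSK3A at +0.32 ± 0.078 log2 (limma, adjusted p = 0.614) and GSK3B at -0.22 ± 0.097 (adjusted p = 0.644). The ligand WNT6 stood at +0.54 ± 0.17 (adjusted p = 0.614) and the nuclear partner PYGO2 at +0.30 ± 0.12 (adjusted p = 0.630). In CA against Control the count was 3 of 81, beside 4.47% of all genes, with WNT6 at +0.47 ± 0.17, the ligand WNT11 at -0.27 and the co-repressor TLE3 at -0.18, all with an adjusted p of 0.996. In ICC against CA it was 2 of 81, beside 2.69% of all genes, with AXIN1 and AMER1 of the destruction complex both at +0.22 (adjusted p = 1.00). These shares were near or under those of all genes, and AMER1 lay below the lower quartile of all genes on all 9 arrays. Of 17 other BMP genes 1 had an unadjusted p under 0.05 in ICC against Control, the type I receptor BMPR1B at +0.24 (adjusted p = 0.614), which also lay below that quartile on all 9 arrays.

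Of 19 other receptors and R-spondins measured, 2 were called in replicate 1 and 3 in replicate 2 against 3, beside 5.07% and 1.73% of all genes. LGR4, the R-spondin receptor related to LGR5, had 7.72, 7.74 and 7.51 in replicate 1 of ICC, CA and Control, 8.38, 8.13 and 8.28 in replicate 2, and 8.67 in all 3 arrays of replicate 3. The 3 numbers did not overlap, and LGR4 was lower in replicate 1 by 0.81 ± 0.071 log2 (adjusted p = 2.84e-04) and in replicate 2 against 3 by 0.40 ± 0.082 (adjusted p = 0.0430). The co-receptor LRP6 was lower in replicate 1, at -0.28 (adjusted p = 0.0476), and the ubiquitin ligase component BTRC higher, at +0.25 (adjusted p = 0.0330). LRP5, at -0.59 (adjusted p = 0.0123), and FZD3, at -0.42 (adjusted p = 0.0297), were lower in replicate 2 than in replicate 3. These were 3 of 81 other Wnt genes in each contrast, beside 5.07% and 1.73% of all genes. The share was under that of all genes in the first contrast and above it in the second. Of 17 other BMP genes, the signal transducer SMAD1 alone passed in replicate 1, at +0.32 (adjusted p = 0.0154), and 0 passed in replicate 2 against 3.

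Some markers of other cell types also differed by replicate number. Most goblet and Paneth markers did not pass. Of the 4 measured leukocyte markers 2 passed in replicate 1, both higher, beside 5.07% of all genes. The summed intensity of 7 goblet cell markers lay between 1704 and 2234 in replicate 1, between 2326 and 2991 in replicate 2 and between 3098 and 3571 in replicate 3. AGR2, a secretory chaperone, was the 1 of the 7 that passed, lower by 0.77 log2 in replicate 1 (adjusted p = 3.27e-04) and by 0.40 in replicate 2 against 3 (adjusted p = 0.0408). The other goblet markers, MUC2 among them, did not pass, and the medians of the list were -0.13 and -0.01 log2. Of the 7, 2 lay above 0 and 5 below in replicate 1, and 3 above and 4 below in replicate 2 against 3. The rise of the sum was thus not shared by all 7 markers. The sum of 4 Paneth cell markers lay between 7083 and 8123 in replicate 1, between 9198 and 9566 in replicate 2 and between 8998 and 9250 in replicate 3. LYZ, lysozyme, was the 1 of the 4 that passed, lower by 0.32 in replicate 1 (adjusted p = 0.0123), and the medians of the list were -0.04 and +0.02. The 4 measured leukocyte markers of 6 listed summed to between 355 and 490 in replicate 1, between 276 and 345 in replicate 2 and between 270 and 308 in replicate 3. CD14 and LAPTM5 were higher in replicate 1, by 0.49 and 0.69 log2, and PTPRC, which defines leukocytes, lay below the lower quartile of all genes.

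The 10 epithelial markers summed to between 49772 and 51129 in replicate 1, between 51884 and 52735 in replicate 2 and between 52931 and 54303 in replicate 3, and 1 of the 10 passed in each contrast. Fibroblast, endothelial, enteroendocrine and enterocyte sums overlapped between the numbers, with 3 of 6, 3 of 4, 3 of 3 and 4 of 8 measured markers below the lower quartile. By treatment 0 markers of any list passed. In ICC minus CA 5 of 7 goblet markers lay above 0 and 2 below, with a median of +0.22 log2, beside +0.02 over all genes. At an unadjusted limma p under 0.05 the goblet count was 2 of 7, beside 2.69% of all genes. With the block it was 4 of 7, beside 5.96%. The fibroblast sum lay between 278 and 309 in ICC, between 258 and 286 in CA and between 250 and 267 in Control. In ICC minus Control 4 of its 6 markers lay above 0, where 39.8% of all genes lay below. The enterocyte sum lay between 272 and 286 in ICC, between 249 and 264 in CA and between 240 and 291 in Control. In ICC minus CA 6 of its 8 markers lay above 0, where 39.4% of all genes lay below. The part of these markers in the differences between replicate numbers or treatments was not tested.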

How the data were processed

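Total RNA of 9 HT29 samples was labelled with biotin and hybridised to HG-U133 Plus 2.0 arrays, per the labels' protocols. The authors deposited 1 linear intensity per probe set, and the submitters' processing notes name RMA, whose version is not given in the sources used here. Each deposited intensity was turned into its log2. The table held 54675 probe sets: 62 controls, 41091 with 1 gene symbol, 1801 with several and 11721 with none, named by the platform annotation, which can be old. Of the 41091, 41037 could be matched to RefSeq by Entrez identifier, which changed 0 symbols. Each of 19775 genes took its brightest single-symbol probe set. The number of arrays limits precision.

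The test was limma's (version 3.58.1, R 4.3.3, lmFit and eBayes), with a term for group over the 9 arrays, and p-values were adjusted by Benjamini-Hochberg over all genes. Replicate numbers were compared in a model with group and number. Errors are SE of those fits. An exact permutation test of 3 against 3 arrays cannot go below 0.1. The numbers were taken to pair the arrays because deviations from group means correlated between 0.327 and 0.518 in the 9 same-numbered pairs, and between -0.436 and 0.0839 in 18 others, so the number was also fitted as a block. Deviations within a group sum to 0, so positive same-numbered values push the others down, and the low values add no separate evidence. The fits were also run on simulated arrays without any effect of replicate number, which cannot decide between the fits with and without the block.

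The members, the other gene lists and the tests were chosen with earlier results of these data known. All 37 members are named. Values by array are given for readout genes of the pathway, for members with an unadjusted p under 0.05 for treatment with or without the block, and for the 5 smallest p in each replicate contrast. Of other pathway genes at most 3 per list and comparison are named. Alternatives covered the normalization, the filter on dim genes, the choice of probe set, the terms of the model and each array left out. Single probe sets were tested over all single-symbol probe sets. That test, and the block combined with another normalization or with an array left out, were chosen after seeing the data. Plots used matplotlib 3.10.9 and Python 3.11.15.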

Additional observations from a re-analysis of the deposited data

How the results depend on the processing

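No treatment call of a member appeared under any of the alternatives run. The replicate block gave 3 genes called in CA against Control (5 with centred arrays, 0 with quantile normalization again, between 0 and 1 with an array left out) and 1 in ICC against CA (1 with centred arrays, 2 with quantile normalization again, 0 in all 9 settings with an array left out), and changed no other treatment call. The members' median ran, with 1 array left out, between -0.015 and 0.065 in ICC minus Control, between -0.11 and -0.012 in CA minus Control, and between -0.013 and 0.12 in ICC minus CA. Dropping probe sets that may match several transcripts (ending in _x_at or _s_at) left 24 members. Their median was -0.014 in ICC minus Control and -0.17 in replicate 2 minus 3. APC in CA minus Control reversed to -0.023 with the mean of its probe sets and to -0.23 without those probe sets.

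For replicate 1, genes called ran between 337 and 939 and members called between 4 and 7 with an array left out. Without the group term 4 members were called. Without dim genes, which left 27 members, their median was 0.095, beside 0.047 over all genes kept. For replicate 2 against 3, genes called ran between 6 and 360 and members called between 0 and 7 with an array left out. Without the group term these were 214 and 2, and without dim genes 692 of 10043 genes and 7 of 27 members were called. The median ran down to -0.14 with an array left out and was -0.15 over the 27 members left without dim genes. The mean of probe sets ended the calls of CTNNB1 and TCF7L2 in replicate 1 and of PROX1 in replicate 2 against 3. The model without group ended those of ASCL2, CTNNB1, MMP7 and TCF7L2 in replicate 1 and of LGR5, MMP7 and PROX1 in replicate 2 against 3. Fewer arrays lower the power by construction. Other causes were not tested.

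OLFM4, APCDD1 and ID3 lie below the lower quartile of all genes, which limits what their differences show.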

Other observations

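Several members have more than 1 probe set, and some of these, chosen after their values were seen, did not follow the brightest. The second probe set of CDCA7, a gene active in dividing crypt cells, had 7.57, 7.43 and 7.62 log2 in replicate 2 of ICC, CA and Control, against 8.20, 8.54 and 8.69 in replicate 3, a difference of -0.94 ± 0.12 (limma, adjusted p = 0.0116). The arrays of both numbers did not overlap. The brightest CDCA7 probe set stood at -0.07 in the same contrast (adjusted p = 0.789). A dimmer probe set of LRIG1 was higher in replicate 1 by 0.41 log2 (adjusted p = 0.0187), where the brightest stood at -0.08.

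CD44 had 13 probe sets. All 13 lay below 0 in CA minus Control, between -0.29 and -0.01, and 12 of 13 in ICC minus Control, but 0 passed in either comparison. The exception in ICC minus Control was the brightest probe set, at +0.05, which stands for CD44 in the results above. The 13 probe sets share the gene and the arrays, so they are not independent.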
